A study of Mus musculus with 15 samples.

Results

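Evx1 and its antisense transcript Evx1os are 2 of the 41591 genes in a table of RNA-seq read counts from mouse epididymis. The pair was chosen by symbol, for the graded change of its counts across Plag1 genotypes in these same libraries, so the differences between genotypes given for it are descriptions and carry no test. The libraries came from whole epididymides of mice aged 7 weeks, with the strain label Brown Swiss, and each library came from 1 animal. There were 5 knockouts (KO, Plag1 -/-), 5 heterozygotes (HET, Plag1 -/+) and 5 wild types (WT). Libraries are named by genotype and animal number, such as KO-694. No other allele and no treatment is given for any group, and how the Plag1 allele was disrupted is not given in the sources used here.

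Evx1 encodes a homeodomain transcription factor related to even-skipped of Drosophila. In mouse embryos it is known from the primitive streak, the tail bud and a class of ventral spinal cord interneurons, and it lies beyond the last gene of the HoxA cluster, Hoxa13. Evx1os is a long noncoding RNA read from the other strand, starting inside Evx1. Plag1 encodes a zinc finger transcription factor that binds GC-rich DNA, and the epididymis is the duct in which sperm mature and are stored.

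In the RefSeq annotation of GRCm38.p6, Evx1 (NCBI Gene 14028, protein coding, plus strand) spans chromosome 6 from 52313498 to 52318389, which is 4892 bp. Evx1os (NCBI Gene 70593, lncRNA, minus strand) spans 52308389 to 52314832, which is 6444 bp. Its start lies 1334 bp downstream of the start of Evx1, within intron 1 of Evx1 (52314272 to 52315737, 1466 bp), and the gene bodies share 1335 bp. In GENCODE M21 exons the overlap is much smaller. An Evx1os exon from 52313304 to 52313570 crosses the start of Evx1, and 73 bp are exonic in both genes, 2.54% of the Evx1 exons and 2.42% of the Evx1os exons. The library kit kept strand, but the strand setting of the counting is not given, so reads in the shared bases cannot be told apart between the genes.

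The 250 bases before each annotated start are shown because the genes begin close together on opposite strands and were both low in KO. They are RefSeq sequence of GRCm38.p6, each written 5′ to 3′ on its own gene's strand. Capitals mark GGGGC, a form of the core of the known PLAG1 motif, on either strand (GCCCC where it lies on the other strand). The form GAGGC was not marked or counted by itself. The Evx1 window is chr6:52313248-52313497 on the plus strand and the Evx1os window is chr6:52314833-52315082 on the minus strand.
Evx1: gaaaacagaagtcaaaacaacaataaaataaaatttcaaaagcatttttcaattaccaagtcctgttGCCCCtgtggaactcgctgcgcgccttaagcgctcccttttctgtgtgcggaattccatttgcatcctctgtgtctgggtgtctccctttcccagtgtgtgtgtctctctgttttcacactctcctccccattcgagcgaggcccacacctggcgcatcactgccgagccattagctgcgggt
Evx1os: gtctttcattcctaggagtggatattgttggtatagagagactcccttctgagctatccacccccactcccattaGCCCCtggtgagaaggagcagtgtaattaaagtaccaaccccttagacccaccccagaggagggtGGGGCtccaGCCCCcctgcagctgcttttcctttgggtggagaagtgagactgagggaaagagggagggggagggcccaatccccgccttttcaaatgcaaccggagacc
The Evx1 window held 1 match to GGGGC, at bases 183 to 179 before the start, and also holds an unmarked GAGGC. The Evx1os window held 3, at 175 to 171, 110 to 106 and 101 to 97. GGGGC was in 56.5% of all 32851 promoter windows of this length, so a match is common. The longer motif, GGGGC or GAGGC followed after 6 to 8 bases by GGG, searched on both strands, was in 19.9% of all windows and in neither of these. The Evx1 window had a GC content of 49.6% and 10 CpG dinucleotides and the Evx1os window 55.6% and 2, beside medians of 52.4% and 6 over all windows. These matches describe letters in the windows and say nothing of binding.

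KO libraries held 25.3 to 42.0 M counts (M for mega), HET libraries 23.6 to 33.8 M and WT libraries 20.3 to 27.8 M. Plag1 itself was read in every library, at 8.33 ± 0.973 CPM (counts per M counts) in KO, 10.2 ± 1.38 CPM in HET and 12.7 ± 0.870 CPM in WT (SD, n = 5 each). It was lower in KO than in WT (log2 fold change -0.61 ± 0.10 SE, edgeR quasi-likelihood adjusted p = 0.00491), and the tests of HET against WT (-0.32 ± 0.10, adjusted p = 0.981) and of KO against HET (-0.29 ± 0.10, adjusted p = 0.128) did not pass. Counts cover the whole gene, so they do not show how much intact Plag1 RNA was left. Markers of the labelled tissue were abundant. Genes of the epididymal epithelium summed to between 72700 and 93400 CPM in KO, 84400 and 101000 CPM in HET and 79300 and 92500 CPM in WT. An 18S ribosomal RNA sequence (Rn18s-rs5) took 1.29% of the counts of KO-738 and 1.30% of those of HET-693, against at most 0.509% elsewhere.

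Evx1 was read rarely, and mostly in WT. It had 1, 2, 0, 5 and 0 reads in KO-694, KO-695, KO-696, KO-738 and KO-739. HET-692, HET-693, HET-715, HET-718 and HET-735 had 8, 5, 6, 1 and 4 reads, and WT-709, WT-719, WT-720, WT-723 and WT-726 had 24, 8, 11, 19 and 13. Every KO and every HET library was below every WT library in level, while KO and HET overlapped through KO-738, the highest KO library, and HET-718, the lowest HET library. Scaled by library size, Evx1 was at 0.0387, 0.056, 0, 0.157 and 0 CPM in the KO libraries, at 0.235, 0.181, 0.212, 0.0364 and 0.172 CPM in the HET libraries and at 0.923, 0.402, 0.393, 0.695 and 0.530 CPM in the WT libraries, in the same order. The mean was 0.0503 ± 0.0644 CPM in KO, 0.167 ± 0.0774 CPM in HET and 0.589 ± 0.223 CPM in WT (SD, n = 5 each). KO thus held 8.55% and HET 28.4% of the WT mean. The sums behind these means were 8 reads in KO, 24 in HET and 75 in WT, with exact 95% Poisson intervals of 3.45 to 15.8, 15.4 to 35.7 and 59.0 to 94.0.

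Evx1os followed the same order with slightly more reads. It had 1, 4, 2, 2 and 1 reads in the KO libraries, 9, 5, 11, 5 and 4 in the HET libraries and 26, 8, 17, 20 and 26 in the WT libraries. In CPM these were 0.0387, 0.112, 0.0462, 0.0627 and 0.0299 in KO, 0.265, 0.181, 0.388, 0.182 and 0.172 in HET and 0.999, 0.402, 0.608, 0.731 and 1.06 in WT. No 2 genotypes overlapped for Evx1os: each KO library was below each HET library, and each HET library was below each WT library. The mean was 0.0579 ± 0.0325 CPM in KO, 0.238 ± 0.0921 CPM in HET and 0.760 ± 0.274 CPM in WT (SD, n = 5 each), so KO held 7.62% and HET 31.3% of the WT mean. Sums were 10, 34 and 97 reads, with exact 95% Poisson intervals of 4.80 to 18.4, 23.5 to 47.5 and 78.7 to 118. All these intervals cover counting error only.

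**Figure D1:**
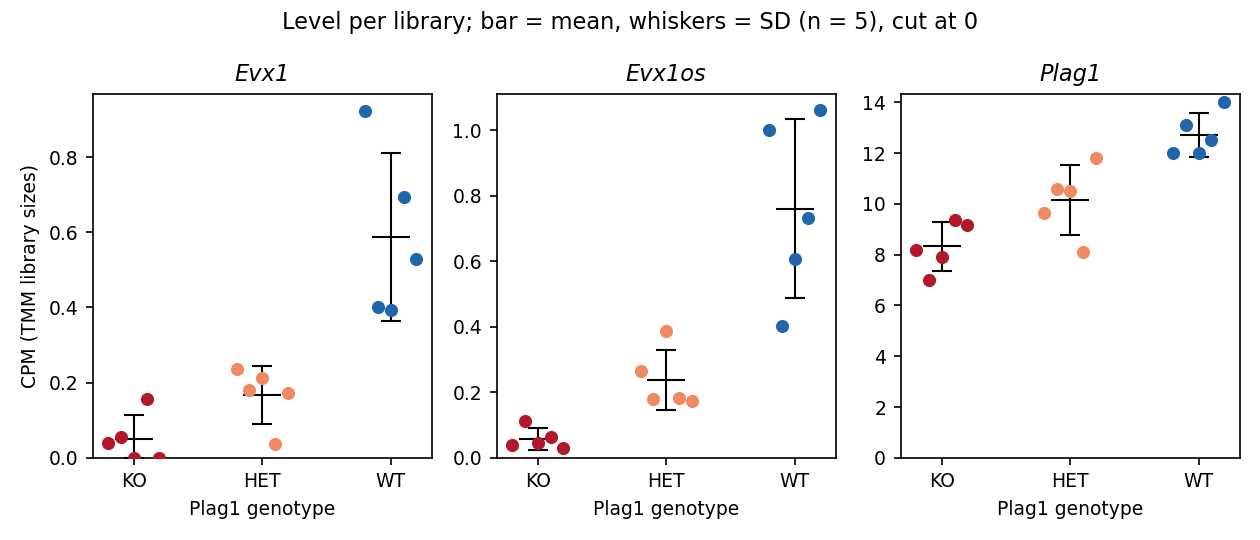
Level of Evx1, Evx1os and Plag1 in each library in CPM, on an axis that starts at 0 and differs between panels, by Plag1 genotype. Points are single libraries, bars the mean and whiskers the SD (n = 5, lower whisker stopped at 0). Evx1os falls into 3 levels that do not overlap, Evx1 overlaps between KO and HET, and Plag1 changes far less, with means of 8.33 CPM in KO, 10.2 CPM in HET and 12.7 CPM in WT.

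Pooled over libraries, the Evx1 rate was 12.7-fold lower in KO than in WT (95% interval from counting alone, 6.12 to 30.5), 3.49-fold lower in HET than in WT (2.18 to 5.79) and 3.63-fold lower in KO than in HET (1.58 to 9.35). For Evx1os the same ratios were 13.1-fold (6.84 to 28.2), 3.19-fold (2.14 to 4.86) and 4.11-fold (1.99 to 9.34). The intervals of the pair overlap in each comparison. They take reads as units and leave out the spread between animals, so they are no test of the genotypes. The fitted log2 fold changes, which also carry the spread between animals, were -3.53 ± 0.57 for Evx1 and -3.61 ± 0.38 for Evx1os in KO against WT (SE). They were -1.78 ± 0.47 and -1.65 ± 0.31 in HET against WT, and -1.75 ± 0.68 and -1.96 ± 0.44 in KO against HET. These SEs were derived from the edgeR test statistic. In KO against WT, DESeq2 gave larger SEs, 0.68 for Evx1 and 0.57 for Evx1os. On the log2 scale the fitted HET level minus the midpoint of KO and WT was -0.01 for Evx1 and 0.15 for Evx1os. No SE was computed for this difference, and the pair was chosen for its graded change. On the CPM scale HET, at 28.4% and 31.3% of the WT mean, lay nearer to KO, at 8.55% and 7.62%, than to WT.

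The background for these differences is as follows. Among 19388 genes with enough reads to be tested, 1163 (6.0%) passed an adjusted p under 0.05 in KO against WT, 310 of them (1.60%) lower and 853 (4.40%) higher in KO. In KO against HET 381 genes (1.97%) passed, 68 of them (0.351%) lower and 313 (1.61%) higher in KO, and in HET against WT 0 genes (0.00%) passed in edgeR, where 854 had an unadjusted p under 0.05, against 1 adjusted call in DESeq2 and 0 in limma voom. Every KO library was below every WT library for 266 genes (1.37%), every HET library below every WT library for 63 genes (0.325%) and every KO library below every HET library for 274 genes (1.41%). The full order, every KO below every HET below every WT library, was met by 1 gene (0.00516%), Evx1os. The reverse full order was met by 1 gene, the TGF-beta receptor gene Tgfbr2, and by 0 genes with total-count scaling and 2 with RLE factors (Ldb2 and Tgfbr2). Since the pair was chosen for this pattern, nothing further is read from these shares.

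The full order of Evx1os rests on a narrow gap between HET and WT. WT-719, the lowest WT library, had 8 reads (0.402 CPM), and 7.73 reads would have put it level with HET-715, the highest HET library, at 0.388 CPM. The order was kept when the libraries were scaled by total counts or by RLE factors, an alternative chosen after seeing the data. At these levels counting noise alone can move a library: 3 reads, the limit that a count of 0 allows, corresponded to 0.0693 to 0.116 CPM in KO libraries, 0.0883 to 0.129 CPM in HET libraries and 0.107 to 0.151 CPM in WT libraries. In KO, 4 of 5 libraries had 3 reads or fewer of Evx1, 2 of them 0, and 4 of 5 had 3 reads or fewer of Evx1os, none of them 0. A KO library with 0 reads of Evx1 is below detection at this depth and is not shown to lack it.

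KO-738 held 5 of the 8 Evx1 reads in KO and is also a library with high 18S sequence. Without it the KO mean of Evx1 was 0.0237 ± 0.0282 CPM (SD, n = 4; 3 reads) and the log2 fold change against WT -4.51, and KO and HET still overlapped, since the highest remaining KO library was at 0.056 CPM and HET-718 at 0.0364 CPM. Evx1os hardly moved, with a KO mean of 0.0567 ± 0.0374 CPM (SD, n = 4; 8 reads). Animal numbers below 700 occur in KO and HET and in no WT library, and what the numbers mean is not given. Within KO, Evx1 averaged 0.0316 CPM in 3 animals below 700 and 0.0784 CPM in 2 at or above it, and within HET 0.208 CPM in 2 animals and 0.140 CPM in 3. Evx1os averaged 0.0656 and 0.0463 CPM in the same KO animals and 0.223 and 0.247 CPM in the same HET animals. In both number ranges, and for both genes, the HET mean was above the KO mean and below the lowest WT library.

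Reads of the pair were split between the genes in proportions whose intervals overlapped in every genotype. Evx1os took 10 of 18 reads in KO (55.6%, exact binomial 95% interval 30.8% to 78.5%), 34 of 58 in HET (58.6%, 44.9% to 71.4%) and 97 of 172 in WT (56.4%, 48.6% to 63.9%). By library, Evx1os had more reads than Evx1 in 10, the same number in 4 and fewer in 1, KO-738. Across the 15 libraries the log2 levels of the pair correlated with Pearson's r = 0.916, and each was the most similar tested gene to the other. Both genes were chosen for their graded change across genotypes, which enters this r and this rank, so neither is evidence of a link. On deviations from the genotype means r was 0.526 over the same 15 libraries, whose counts share library size as well as the 73 bp of common exon.

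**Figure D2:**
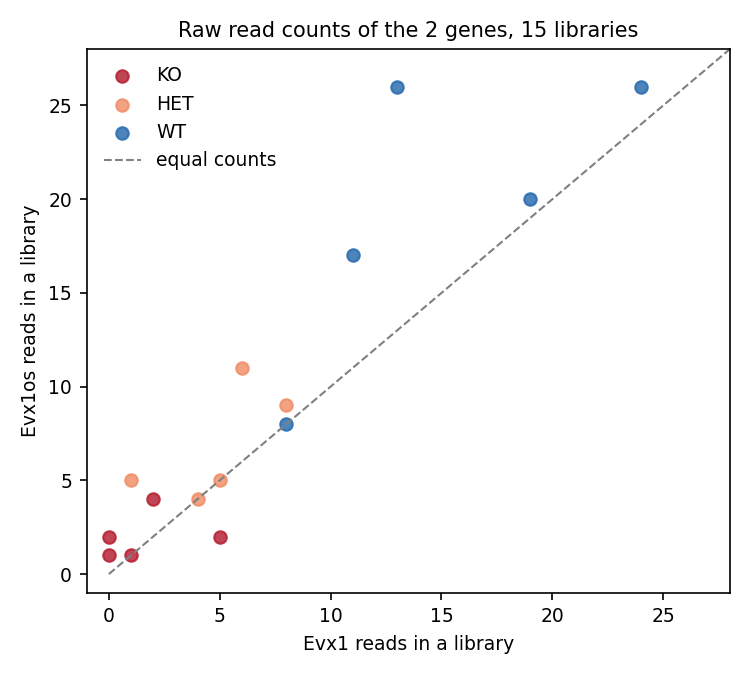
Raw reads of Evx1os (vertical axis) against raw reads of Evx1 (horizontal axis), 1 point per library, coloured by genotype; some points coincide. Points lie along or above the dashed line of equal counts, except KO-738 with 5 Evx1 and 2 Evx1os reads, and the KO libraries sit at 0 to 5 reads of either gene.

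Even in WT these were rare transcripts. Per kilobase of exon, the WT mean was 0.205 CPM for Evx1 and 0.252 CPM for Evx1os, against 1.50 CPM per kilobase for Plag1. By CPM, which does not allow for length, 10.6% of tested genes were lower than Evx1 in WT and 14% lower than Evx1os. The filter on low counts asked for about 0.353 CPM in at least 5 libraries. Evx1 passed it through 5 WT libraries and no other, and Evx1os through 5 WT and 1 HET library, so both entered the fit because of the genotype in which they were high. In RNA from a whole organ, fewer cells with a transcript and less transcript per cell cannot be told apart.

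No tested neighbour of the pair on chromosome 6 was called lower in KO. Of 29 other genes in the table within 500 kb of Evx1, 22 were tested. In KO against WT, 3 were higher and 0 lower (background 4.40% higher and 1.60% lower), with a median log2 fold change of 0.17 and a range from -0.31 to 0.77, beside a median of -0.01 over all tested genes. With so few genes and that background, 0 lower calls says little about the neighbours. Gm8129, a pseudogene 28.3 kb beyond Evx1 and the nearest tested gene on that side, had a log2 fold change of -0.31 ± 0.15 (SE, edgeR adjusted p = 0.217). Further out, Hibadh, Tax1bp1, Jazf1 and, beyond the HoxA cluster on the other side, Skap2 lay between -0.11 and 0.10 and did not pass the test. On the HoxA side the genes next to the pair were all but unread: Hoxa13, 52.6 kb away, had 0 reads in all 15 libraries, which allows up to 0.00687 CPM over the pool, and the lncRNA Hottip, 45.9 kb away, had 1 read, in WT-709.

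The neighbours that passed were Hoxa5, Hoxa6 and the noncoding Mira, which lie together in the middle of the cluster, 108.9, 104.8 and 98.2 kb from Evx1. Hoxa5, a homeobox transcription factor gene, was at 9.69, 8.31, 10.7, 7.37 and 10.1 CPM in the KO libraries, at 6.24, 6.08, 6.67, 5.97 and 5.90 CPM in the HET libraries and at 5.96, 5.72, 5.72, 5.52 and 6.0 CPM in the WT libraries. All KO libraries were above all others, while HET and WT overlapped. The share of all tested genes with every KO library above all others was not counted. It rose in KO against WT (log2 fold change 0.67 ± 0.10, edgeR adjusted p = 0.00335) and in KO against HET (0.58 ± 0.09, adjusted p = 0.0198). Hoxa5 still passed with the animal number range as a term (adjusted p = 0.0239) and did not among animals numbered 700 and above (0.60, adjusted p = 0.130), where KO has 2 libraries.

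Mira was at 5.31, 4.81, 5.13, 4.01 and 5.98 CPM in the KO libraries, at 3.65, 3.73, 3.70, 4.15 and 4.39 CPM in the HET libraries and at 3.54, 4.17, 3.15, 2.71 and 3.43 CPM in the WT libraries. Its log2 fold change in KO against WT was 0.58 ± 0.13 (edgeR adjusted p = 0.0190), with KO and WT overlapping through KO-738 and WT-719, and it was lost in 2 of the 15 fits that leave out a single library. Hoxa6 was at 1.78, 1.87, 2.20, 1.13 and 1.34 CPM in the KO libraries, at 1.35, 1.09, 1.09, 0.983 and 1.29 CPM in the HET libraries and at 1.19, 0.653, 0.715, 1.35 and 0.938 CPM in the WT libraries. Its groups overlapped, its adjusted p was 0.0499 (0.77 ± 0.22), and it was lost in 13 of those 15 fits. With the animal number range as a term neither Mira (adjusted p = 0.0671) nor Hoxa6 (adjusted p = 0.300) passed. Hoxa3 and the antisense Hoxaas3 overlap Hoxa5 and Hoxa6 but not Mira, so reads of Hoxa5 and Hoxa6 may be split between genes.

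Other HoxA genes did not pass in KO against WT. Hoxa2 (0.41 ± 0.13, edgeR adjusted p = 0.0729) and Hoxa4 (0.40 ± 0.13, adjusted p = 0.0796) came nearest, and the tested genes of the cluster closest to Evx1, the antisense Hoxa11os (0.08 ± 0.30, adjusted p = 0.911), Hoxa11 (0.03 ± 0.16, adjusted p = 0.935) and Hoxa10 (-0.18 ± 0.13, adjusted p = 0.418), did not pass either, beside fitted values of -3.53 for Evx1 and -3.61 for Evx1os. Halr1, a lncRNA on the far side of the cluster, was as rare as the pair, at 0.292 CPM per kilobase of exon in WT, and had a log2 fold change of 0.30 ± 0.38 (adjusted p = 0.680). Per kilobase of exon in WT, Hoxa10 was at 5.06 CPM, Hoxa5 at 3.08, Hoxa11 at 1.68 and Hoxa9 at 1.55, all above the 0.205 CPM of Evx1. In HET against WT 0 of the 22 neighbours passed, as did 0 of all tested genes. The median there was 0.03, with a range from -0.58 to 0.25. Lowest were Hoxa11 (-0.58 ± 0.17), Hoxa11os (-0.54 ± 0.31) and Hoxa10 (-0.44 ± 0.13), each with an edgeR adjusted p of 0.981. In KO against HET the median was 0.24, and only Hoxa5 passed. These comparisons share libraries.

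**Figure D3:**
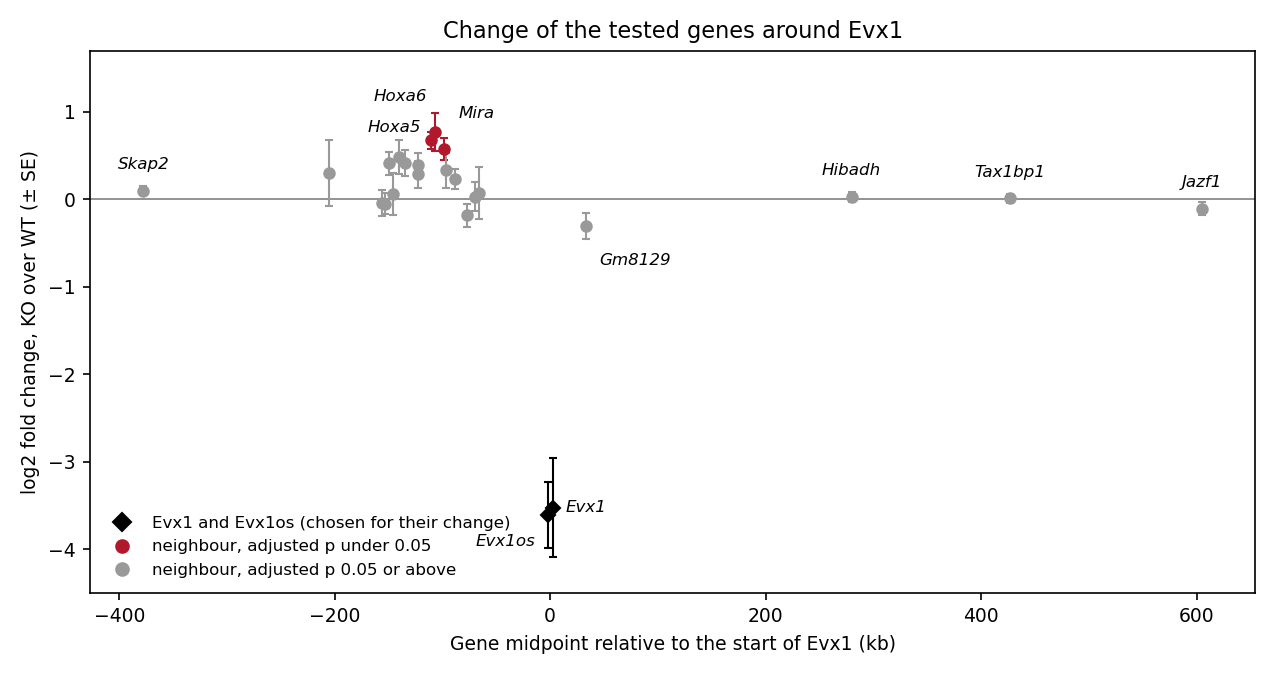
Fitted log2 fold change of KO over WT (vertical axis, whiskers SE) of the tested genes within 500 kb of Evx1, placed by the distance of each gene's midpoint from the start of Evx1 in kb. Evx1 and Evx1os (diamonds) lie at -3.53 and -3.61, while the 22 neighbours lie between -0.31 and 0.77, and the 3 that passed the test (Hoxa5, Hoxa6 and Mira) are higher in KO.

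Most relatives of Evx1 had few or no reads. Its paralogue Evx2, beside the HoxD cluster on chromosome 2, had 3 reads in KO, 1 in HET and 1 in WT. Of 10 caudal and even-skipped related homeobox genes none passed the filter on low counts: 5 had 0 reads in all 15 libraries and 4 had between 1 and 10. Cdx2, a caudal-type gene, had 40 reads in KO, 26 in HET and 34 in WT, with none of the 15 libraries at 0. Its level ran from 0.0627 to 0.560 CPM in KO, from 0.109 to 0.258 CPM across HET and from 0.115 to 0.452 CPM across WT libraries, so all genotypes overlapped. Of 12 genes in the list of Evx2 and its HoxD neighbours, 9 were tested, with a median log2 fold change of -0.19 in KO against WT. Of these, 1 was lower and 0 higher, beside 1.60% lower and 4.40% higher among all tested genes. The lower gene was Hoxd10, at 4.86 ± 0.973 CPM in KO, 5.09 ± 1.32 CPM in HET and 7.32 ± 0.631 CPM in WT (SD, n = 5 each), with -0.60 ± 0.17 and an edgeR adjusted p of 0.0495, and the call was lost on leaving out a single library in 12 of 15 cases.

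Many genes of the developmental settings in which Evx1 is known were too rare to be tested here. Of 16 genes of the primitive streak and early mesoderm, 7 were tested. Of these, 0 passed in either direction in KO against WT (median log2 fold change 0.11), beside 6.0% of all tested genes. A result of 0 calls among so few genes says little about the list. Of 21 transcription factor genes listed for spinal cord neurons, not only ventral ones, 8 were tested. Of these, 0 were higher and 2 lower (median -0.27), beside 4.40% higher and 1.60% lower among all tested genes. The lower genes were Gata3 (-0.38 ± 0.09, edgeR adjusted p = 0.0272), which is also known from many epithelia, and Pou4f1 (-0.93 ± 0.26, adjusted p = 0.0476). On leaving out a single library the call of Gata3 was lost in 6 and that of Pou4f1 in 12 of 15 cases. With the animal number range as a term neither passed (adjusted p = 0.0502 for Gata3 and 0.183 for Pou4f1). Nerve and neuron markers summed to between 26.2 and 31.7 CPM in KO, 21.4 and 28.8 CPM in HET and 22.7 and 27.4 CPM in WT. In KO against WT 0 of 10 tested passed, beside 6.0% of all tested genes.

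Genes of the distal epididymis and vas deferens, the end of the tract, moved both ways. Of 12 tested, 2 were higher and 4 lower in KO against WT (median 0.01). Among all tested genes 4.40% were higher and 1.60% lower. Higher were Upk1b, a uroplakin (0.58 ± 0.10, edgeR adjusted p = 0.00664), and the keratin gene Krt20 (1.68 ± 0.32, adjusted p = 0.00856). Lower were the water channel Aqp5, the carbonic anhydrase Car4, the anion exchanger Slc26a3, and Hoxd10, which is in this list too. On leaving out a single library Car4 lost its call in 9 and Slc26a3 in 13 of 15 cases. With the animal number range as a term none of the 6 passed: the adjusted p was 0.0665 for Upk1b, 0.0718 for Krt20, 0.0684 for Aqp5, 0.166 for Car4, 0.252 for Slc26a3 and 0.0927 for Hoxd10. In HET against WT 0 of all 19388 tested genes passed in edgeR, so the lists could hold no call there.

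Markers of several other cell types were higher in KO than in WT, beside 4.40% of all tested genes called higher. In HET against WT 0 of 19388 genes were called in edgeR, so no list could have a call there. In KO against WT 8 of 9 fibroblast markers were higher, with sums of 2140 to 3830 CPM in KO libraries, 1930 to 2370 CPM in HET libraries and 1740 to 2180 CPM in WT libraries. The same held for 6 of 9 macrophage markers (120 to 209, 117 to 136 and 99.9 to 123 CPM), for 5 of 12 germ cell markers (42.8 to 210, 60.0 to 107 and 37.9 to 87.3 CPM) and for 1 of 9 fat cell markers (25.9 to 285, 14.3 to 68.2 and 16.3 to 58.9 CPM). Skeletal muscle markers reached 4610 CPM in a KO library, where the other genotypes stayed at or under 95 CPM, and 0 of 7 passed. In KO against HET 5 fibroblast markers and 1 macrophage marker were higher, and 0 of the germ cell, fat cell and skeletal muscle markers. Of all tested genes 1.61% were higher in KO against HET. Of 14 epithelial markers 1 was lower in KO against WT, beside 1.60% of all tested genes. This was the claudin gene Cldn8 (-0.31 ± 0.07, edgeR adjusted p = 0.0162). Cldn8 did not pass with the animal number range as a term (-0.23, adjusted p = 0.116). The fibroblast, macrophage, germ cell and fat cell calls were not looked at with that term. Over all genes it lowered the calls in KO against WT from 1163 to 176. The part of cell makeup in the levels of the pair was not tested.

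The genes most like the pair over the 15 libraries were ranked by Pearson's r with the mean log2 level of Evx1 and Evx1os, among 16161 genes with at least 1 CPM on average. They were Aqp5 (0.892), the adaptor gene Shd (0.875), Zc3h12d (0.863), the homeobox gene Hoxb9 (0.841), the ion channel gene Asic2 (0.838), Ftcd (0.837), Plag1 (0.837) and Stat5a (0.836), and the ninth gene had nearly the same r as the eighth. All 15 points share the genotype difference, so these values describe the likeness and have no test. On deviations from the genotype means r was 0.416 for Aqp5, 0.546 for Shd, 0.783 for Ftcd and 0.162 for Plag1.

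None of these genes came near the fold of the pair. Aqp5 averaged 0.922 ± 0.128 CPM in KO, 1.13 ± 0.136 CPM in HET and 1.53 ± 0.186 CPM in WT (SD, n = 5 each), with KO and HET overlapping and HET and WT overlapping. Shd averaged 1.95 ± 0.427, 2.83 ± 0.442 and 3.70 ± 0.779 CPM in KO, HET and WT, and Hoxb9 63.4 ± 7.02, 78.2 ± 4.37 and 87.4 ± 5.58 CPM. The genes that ran most opposite to the pair were Rflnb (r = -0.916), Slfn2 (-0.908), Lysmd2 (-0.905) and Cd33 (-0.904). Rflnb averaged 39.8 ± 3.65 CPM in KO, 27.5 ± 2.47 CPM in HET and 23.6 ± 2.47 CPM in WT.

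**Figure D4:**
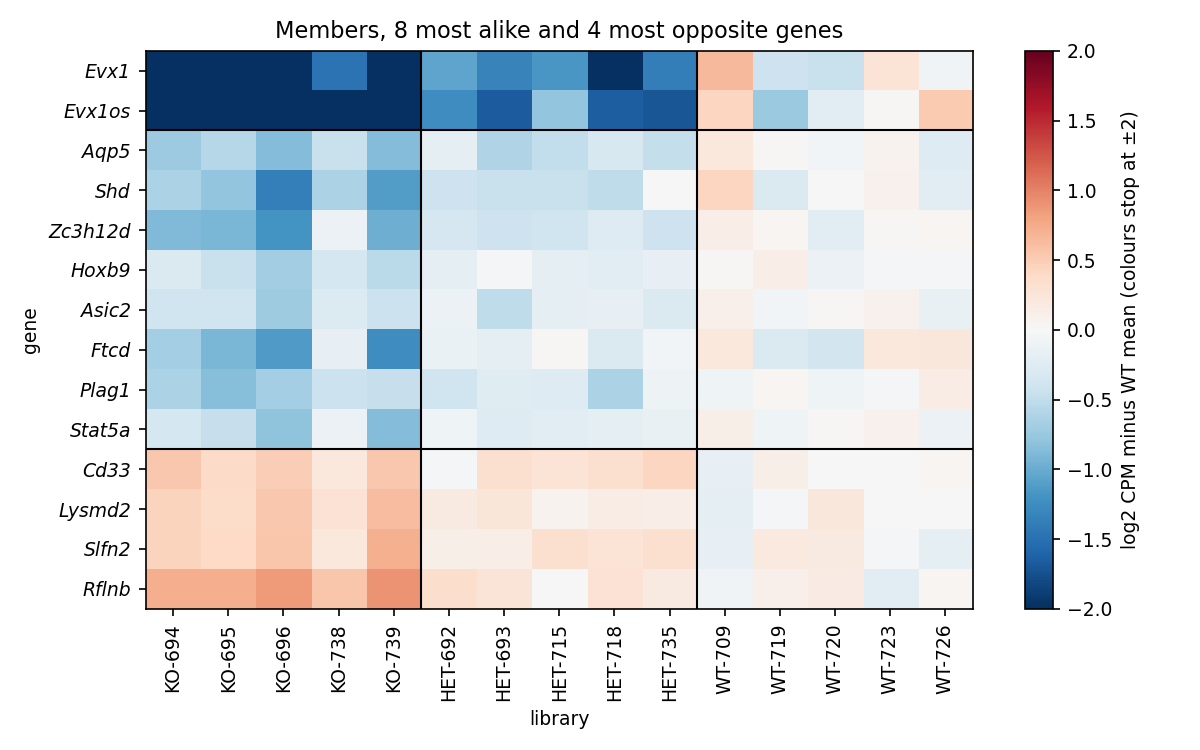
Log2 CPM of each gene minus its WT mean (colour, stopped at -2 and 2) in each library, with KO libraries at the left, HET in the middle and WT at the right. The top rows are Evx1 and Evx1os, the middle rows the 8 most alike genes and the bottom rows the 4 most opposite; the pair is darkest in KO, and the genes most like it change by far smaller amounts.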

How the data were processed

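The deposited values are raw read counts per NCBI Gene ID. Per the labels' protocols, whole epididymis was teased apart, sperm were rinsed off with buffered saline, and 2 µg of DNase-treated RNA went into each stranded mRNA library. Per the submitters' processing notes, reads were handled with HISAT2 2.0.5, featureCounts (Subread 1.4.6p5) and FastQC on GRCm38.p6; the strand setting and the annotation release are not given in the sources used here. Of 41591 IDs, 40290 (96.9%) were named through a RefSeq table of GRCm38.p6, and both members matched.

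Counts were fitted with edgeR 4.0.16 in R 4.3.3 (TMM factors, filterByExpr on genotype, robust quasi-likelihood test) in 1 fit of 15 libraries with 12 residual degrees of freedom. Two-sided p-values were Benjamini-Hochberg adjusted over the 19388 tested genes, and an adjusted p under 0.05 was called. CPM uses TMM library sizes, and log2 CPM a prior count of 2. The SE of an edgeR fold change is its absolute log2 value divided by the square root of the F statistic of its test. The biological coefficient of variation was 16.3%. Libraries of 1 genotype differed by more than sampling noise (chi-square per degree of freedom 5.38 to 92.7), so none was merged in the fit. Reads of the pair were pooled within a genotype only to describe sums, ratios and shares. PCR reads without molecular identifiers are not independent molecules, so intervals and limits from counts cover counting error only.

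The members, gene lists, alternatives and comparisons were chosen with earlier results of these data known. Named are the members, Plag1, Evx2, genes within 500 kb of Evx1 (1 of these is not reported here), up to 4 genes of each list, and the 8 genes most like and 4 most opposite to the members; Tgfbr2, Ldb2 and Hoxd13 were named after their values were seen. Alternatives were RLE factors, other filters, DESeq2 1.42.0, limma 3.58.1 voom with quality weights, fits of 2 genotypes, the animal number range, and leaving out libraries. The test was checked on simulated counts. Further tables were made with pandas 2.3.3 in Python 3.11.15 and figures with matplotlib 3.10.9.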

Additional observations from a re-analysis of the deposited data

Results flagged for a closer look

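Of 75 groups of 5 libraries looked at, 5 had a library far from the other 4, and chance flags about 1 in 20 groups. None of the 5 concerned Evx1, Evx1os or Plag1; all were neighbours on chromosome 6. Halr1 was at 0.512 CPM in WT-723, against 0.201 to 0.286 CPM in the other WT libraries. Hoxa11 was at 2.77 CPM in WT-726, against 4.04 to 4.27 CPM in the other WT libraries. Gm8129 was at 5.92 CPM in KO-739, where the remaining KO libraries had 4.04 to 4.48 CPM, and Tax1bp1 at 300 CPM in KO-739, against 279 to 285 CPM. Hibadh was at 126 CPM in HET-715, against 108 to 112 CPM in the other HET libraries.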

How the results depend on the processing

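The log2 fold changes of Evx1 and Evx1os stayed negative in all 3 comparisons under each alternative that gave a value. The pair was chosen for this direction, so the kept sign is a description. A filter asking for 1 CPM in at least 5 libraries dropped both genes. The fit of KO and HET libraries alone also gave no value for either gene, since without WT libraries neither passed the filter on low counts. Evx1os in KO against WT lay between -3.93 and -3.51 over the alternatives and between -3.97 and -3.46 when 1 library was left out. Evx1 moved more: in KO against WT it was -2.88 among animals numbered 700 and above and -4.51 without KO-738 and HET-693, and -4.51 (without KO-738) to -3.15 (without KO-696) with 1 library left out. In KO against HET it was -0.80 among animals numbered 700 and above, -2.71 without KO-738 and HET-693, and -2.73 to -1.35 with 1 library left out. The SE of the -0.80 was 0.99, larger than the value itself.

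The background depended strongly on the fit. For KO against WT, DESeq2 called 1930 genes, a fit of these 2 genotypes 287, the animal number range as a term 176, animals numbered 700 and above 0 and a fit without KO-738 and HET-693 2722; leaving out 1 library gave 318 (without KO-696) to 2923 (without KO-738). For KO against HET these were 1242 in DESeq2, 1952 in limma voom, 0 in a fit of 2 genotypes, 0 among animals numbered 700 and above, 1660 without KO-738 and HET-693, and 0 (without HET-735) to 2443 (without KO-738) with 1 library left out. For HET against WT DESeq2 called 1. Neighbours called in KO against WT numbered 5 in limma voom, 1 in a fit of 2 genotypes, 1 with the number range as a term, 0 among animals numbered 700 and above, 5 without KO-738 and HET-693, and 1 to 5 with 1 library left out. The cause was not tested.

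Neighbours that did not pass and lay near 0 changed sign: Hoxa11 was -0.063 in limma voom, Hoxaas2 -0.0029 and Hoxa11os -0.13 with the number range as a term, and Hotairm1 0.10, Hoxaas2 -0.22, Hoxa7 -0.084 and Hoxa11os -0.21 among animals numbered 700 and above. With 1 library left out, Hoxa11os ran from -0.11 to 0.28, Hotairm1 from -0.11 to 0.020, Hoxaas2 from -0.087 to 0.20, Hoxa11 from -0.091 to 0.10, Hibadh from -0.0084 to 0.064 and Tax1bp1 from -0.012 to 0.045. No paired analysis was possible because the genotypes share no animal number. Depth limits Evx1 and Evx1os, which rest on 0 to 26 reads a library, so single reads move the KO values.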

Other observations

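Hoxd13, which holds in the HoxD cluster the place that Hoxa13 holds beside Evx1, was looked at after its values were seen and had too few reads to be tested. It had 8 reads in KO, 15 in HET and 23 in WT. Its level ran from 0 to 0.155 CPM in KO, from 0.0353 to 0.182 CPM in HET and from 0.107 to 0.301 CPM in WT, so all genotypes overlapped, KO and WT included.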
